A study of Mus musculus with 20 samples.

Results

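Inhibitory checkpoint genes were followed through 20 RNA-seq libraries of mouse CD4+ T cells with and without deletion of Dot1l or inhibition of its product. The 9 genes, Pdcd1, Ctla4, Havcr2, Lag3, Tigit, Cd160, Cd244, Cd96 and Tox, were selected by name from the 22048 protein-coding genes of the count table. Of those, 13072 held enough counts to be tested, and all 9 checkpoint genes were among them. All but Tox encode surface receptors. Tox encodes a nuclear protein with a DNA-binding HMG box and is not a receptor, so the name "checkpoint receptors" does not cover it.

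KO mice combined loxP-flanked Dot1l alleles with a Cre recombinase driven by CD4, and WT mice had the Cre without them, so every group, controls included, carried the Cre. DOT1L methylates lysine 79 of histone H3. Cells came from spleen and peripheral lymph nodes. KO and WT cells were taken as the starting population, called naive here, or cultured for 4 days on plates coated with antibodies to CD28 and CD3, at 1 µg/ml each. Th1 cultures held IL-2 and IL-12 (10 ng/ml each) and anti-IL-4 (10 µg/ml), and Th2 cultures held IL-2 and IL-4 (10 ng/ml each) and anti-IFN-γ (10 µg/ml). Further WT Th1 and Th2 cultures received the DOT1L inhibitor SGC0946 or its control compound SGC0649, each at 1 µM. After culture, viable cells were sorted on CD4. The 10 groups are KO and WT in the naive state, in Th1 and in Th2, and WT Th1 and Th2 cultures with SGC0946 or SGC0649, with n = 2 libraries each. The labels give neither the age nor the sex of the mice and do not say whether replicates came from separate animals, so p-values measure the spread between these libraries, which may be technical.

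Checkpoint receptors restrain T cells after their antigen receptor has been engaged. PD-1 (encoded by Pdcd1) and CTLA-4 belong to the CD28 family. CTLA-4 competes with CD28 for CD80 and CD86, and PD-1 recruits a phosphatase when it meets PD-L1 or PD-L2. TIM-3 (Havcr2) binds galectins among other partners, and LAG-3 binds MHC class II. TIGIT and CD96 compete with the activating receptor CD226 for the poliovirus receptor and nectins. CD160 binds HVEM, and CD244, also called 2B4, is a SLAM-family receptor for CD48. TOX is needed for CD4+ T cell development in the thymus and is known for its part in exhausted CD8+ T cells.

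Total counts ran from 9704500 to 13025588 per library. Levels are given as CPM, which are counts scaled to a common library size with TMM factors, and as CPM per kilobase of exon (RPKM) where genes are compared with each other. A gene was called when the adjusted p of edgeR's quasi-likelihood test was under 0.05, with no fold threshold. Dot1l RNA, the check of the genotype, was 156 ± 14.1 CPM in KO and 167 ± 5.09 CPM in WT naive cells (SD, n = 2 each; log2 change -0.10 ± 0.11 SE, adjusted p = 0.544), and it was lower in KO Th1 (log2 change -0.39 ± 0.11, adjusted p = 0.00841), as in KO Th2 (log2 change -0.60 ± 0.11, adjusted p = 0.000269). The counts include exons outside any deleted part, so they check the labels weakly. The labelled cell type was checked by its defining gene: Cd4 fell in KO in every state, to 398 to 409 CPM in KO against 981 to 990 CPM in WT naive cells, 199 to 212 CPM in KO against 1007 to 1049 CPM in WT Th1, and 157 to 175 CPM in KO against 543 to 584 CPM in WT Th2. Of 10 tested T cell identity genes, Cd4 among them, 1 was called higher and 5 lower in KO naive cells, 1 and 8 in KO Th1, and 4 and 4 in KO Th2. Over all tested genes, 16% were called higher and 12.4% lower in KO naive cells. The shares were 24.8% and 25.8% in KO Th1, and 26.5% and 26.9% in KO Th2. The sum of the identity genes was 3823 to 4259 CPM in KO naive cells, against 5269 to 5355 CPM in WT naive cells. It was 4044 to 4191 CPM in KO Th1, against 6110 to 6235 CPM in WT Th1. In Th2 it was higher in KO, at 4669 to 5416 CPM, against 3667 to 3955 CPM in WT.

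Ctla4 was the most abundant of the 9 transcripts per length by group mean in 9 of 10 groups. In WT Th1 it overlapped with Lag3 (308 and 288 RPKM for Ctla4, 301 and 291 RPKM for Lag3). It also overlapped with Lag3 in Th1 with SGC0649 (289 and 293 RPKM for Ctla4, 292 and 280 RPKM for Lag3). Lag3 stood above it in Th1 with SGC0946 (348 ± 32.6 RPKM for Lag3 and 319 ± 6.20 RPKM for Ctla4; SD, n = 2). In KO Th2 cultures Ctla4 averaged 988 ± 276 RPKM, followed by Tigit at 599 ± 102 RPKM and Lag3 at 447 ± 27.6 RPKM. Cd244 came next in that group at 74.9 ± 7.59 RPKM, against 2.79 ± 0.288 RPKM and rank 7 of the 9 in WT Th2. Tox was last in KO Th1 and in the Th2 cultures, Cd244 in the WT Th1 cultures with or without compound, and Havcr2 in naive cells. Across the 10 groups the highest mean CPM exceeded the lowest 184-fold for Tox, 131-fold for Havcr2, 82.8-fold for Lag3 and 72.1-fold for Cd244, and 5.97-fold for Ctla4, the steadiest. KO Th2 cultures held the highest mean of Ctla4, Havcr2, Lag3, Tigit and Cd244, KO Th1 cultures that of Pdcd1 and Cd160, and WT naive cells that of Cd96 and Tox. Neighbours in these orders often could not be separated: of the 9 neighbouring pairs of groups, the replicate ranges overlapped in 2 for Pdcd1, Havcr2 and Lag3, in 3 for Ctla4, Cd96 and Tox, in 4 for Tigit and Cd244 and in 5 for Cd160. KO Th2 and KO Th1 overlapped at the top for Havcr2, and KO Th2 stood clear of the next group for Ctla4, Lag3, Tigit and Cd244.

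**Figure D1:**
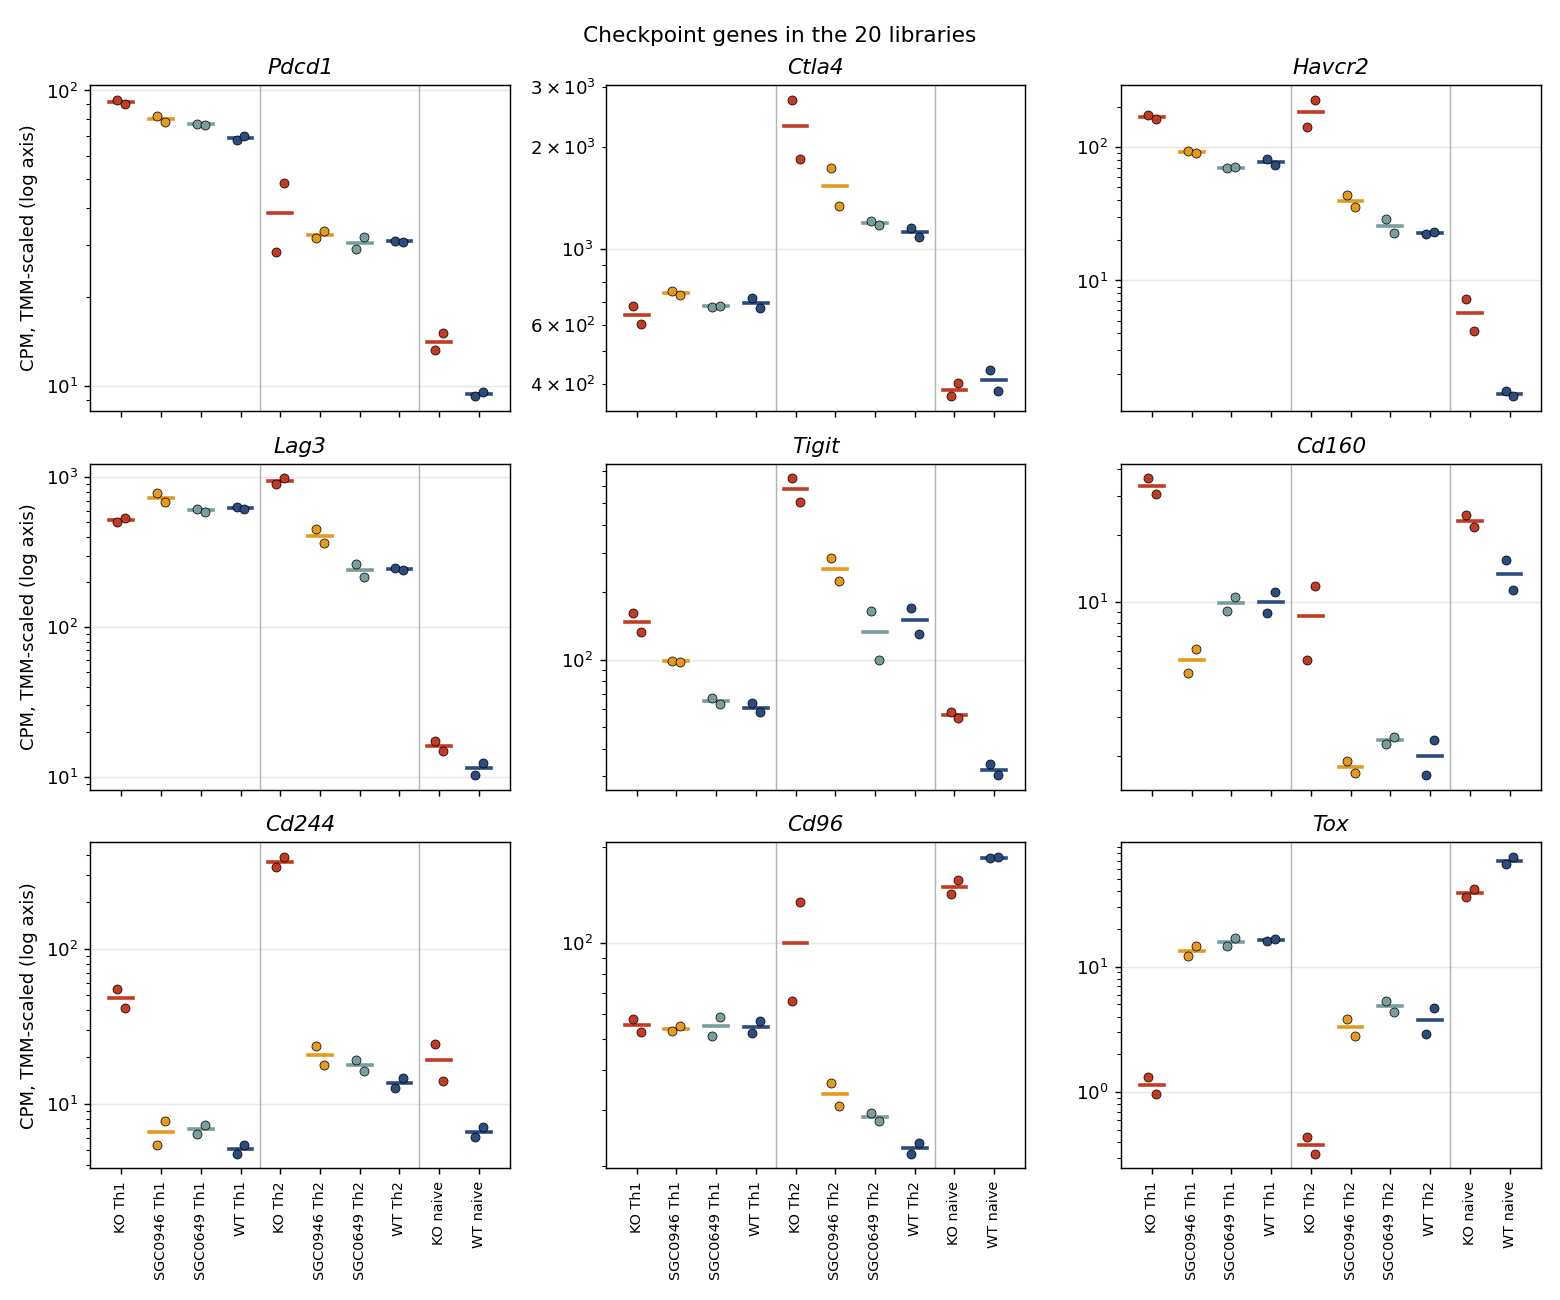
Level of each checkpoint gene in each library (points, CPM on a log axis) by group, with a short line at each group mean. KO Th2 libraries were the highest for Lag3 (902 and 985 CPM) and Cd244 (339 and 391 CPM), and Tox was lowest in KO cultures (1.32 CPM or less).

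Deletion of Dot1l raised most checkpoint receptors and lowered Tox. In naive cells 6 of the 9 genes were called higher and 1 lower in KO, where 16% of all tested genes were called higher and 12.4% lower. In Th1 cultures 5 were called higher and 1 lower, against a background of 24.8% and 25.8%. In Th2 cultures 7 were called higher and 1 lower, against a background of 26.5% and 26.9%. Havcr2, Tigit, Cd160 and Cd244 were called higher and Tox lower in all 3 states. The median log2 change of the 9 genes was 0.59 in naive cells, 0.40 in Th1 and 1.95 in Th2, beside 0.01, 0.01 and -0.01 over all tested genes. The count of 7 in naive cells was 3 without KO naive replicate 1 and 4 without WT naive replicate 2. As these are bulk libraries, a change in the share of cells that express a gene cannot be told apart from a change in RNA per cell.

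Cd244, the SLAM-family receptor (ENSMUSG00000004709, chromosome 1, 171559193 to 171609746, plus strand), had the largest rise of the 9 in Th1 and Th2 cultures. It stood at 24.2 and 13.999 CPM in KO naive cells, against 6.09 and 7.10 CPM in WT naive cells (log2 change 1.53 ± 0.26, adjusted p = 0.000625). Th1 cultures held 54.6 and 41.5 CPM in KO, against 4.75 and 5.38 CPM in WT (log2 change 3.24 ± 0.25, adjusted p = 9.04e-08). Th2 cultures held 339 and 391 CPM in KO, against 12.6 and 14.6 CPM in WT, a 26.9-fold difference (log2 change 4.75 ± 0.23, adjusted p = 2.77e-10). KO and WT libraries did not overlap in any state. Cd160, the HVEM-binding receptor that is anchored in the membrane by a lipid (ENSMUSG00000038304, chromosome 3, 96798763 to 96829351, minus strand), was a low transcript that also rose in each state. Its level was 24.7 and 21.8 CPM in KO naive cells, against 15.4 and 11.3 CPM in WT naive cells (log2 change 0.80 ± 0.24, adjusted p = 0.0211), a call that was lost without KO naive replicate 1 (adjusted p = 0.133) or WT naive replicate 2 (adjusted p = 0.193). In Th1 it was 36.1 and 30.7 CPM in KO, against 8.92 and 11.003 CPM in WT (log2 change 1.74 ± 0.24, adjusted p = 2.07e-05). In Th2 it was 5.43 and 11.8 CPM in KO, against 1.64 and 2.38 CPM in WT (log2 change 2.08 ± 0.34, adjusted p = 7.31e-05). The KO Th2 libraries were far apart here, and without replicate 2 the log2 change was 1.44 (adjusted p = 0.00116).

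Havcr2, which encodes TIM-3 (ENSMUSG00000020399, chromosome 11, 46454935 to 46481255, plus strand), was at 7.28 and 4.18 CPM in KO naive cells, against 1.47 and 1.35 CPM in WT naive cells (log2 change 2.02 ± 0.41, adjusted p = 0.00240). Th1 cultures held 174 and 163 CPM in KO, against 81.3 and 73.1 CPM in WT (log2 change 1.13 ± 0.18, adjusted p = 0.000142). Th2 cultures held 143 and 227 CPM in KO, against 22.2 and 23.3 CPM in WT (log2 change 3.02 ± 0.21, adjusted p = 1.17e-08). All KO libraries were above all WT libraries of the same state. Lag3, the receptor for MHC class II (ENSMUSG00000030124, chromosome 6, 124904361 to 124911705, minus strand), followed the deletion differently in the 2 cultures. It was 902 and 985 CPM in KO Th2, against 249.9 and 239 CPM in WT Th2 (log2 change 1.95 ± 0.12, adjusted p = 8.56e-10). In Th1 it was 506 and 538 CPM in KO, against 634 and 614 CPM in WT, lower in both KO libraries but not past the threshold (log2 change -0.26 ± 0.11, adjusted p = 0.0691). In naive cells it was 17.4 and 14.999 CPM in KO, against 10.3 and 12.5 CPM in WT (log2 change 0.50 ± 0.16, adjusted p = 0.0255), and this call was lost without KO naive replicate 1 (adjusted p = 0.202) or WT naive replicate 1 (adjusted p = 0.179).

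Of the genes for the competing receptors TIGIT and CD96, Tigit rose in all 3 states and Cd96 in Th2. Tigit (ENSMUSG00000071552, chromosome 16, 43648861 to 43664184, minus strand) was 58.5 and 54.8 CPM in KO naive cells, against 34.0 and 30.4 CPM in WT naive cells (log2 change 0.82 ± 0.22, adjusted p = 0.0138), and the call was lost without KO naive replicate 1 (adjusted p = 0.0894) or WT naive replicate 2 (adjusted p = 0.0926). Th1 cultures held 161 and 133 CPM in KO, against 63.7 and 58.1 CPM in WT (log2 change 1.27 ± 0.21, adjusted p = 0.000154). Th2 cultures held 647 and 508 CPM in KO, against 169 and 130.4 CPM in WT (log2 change 1.94 ± 0.20, adjusted p = 1.63e-06). Cd96 (ENSMUSG00000022657, chromosome 16, 46035657 to 46120251, minus strand) was 142 and 158 CPM in KO naive cells, against 185 and 187 CPM in WT naive cells, which did not pass (log2 change -0.31 ± 0.21, 95% interval -0.75 to 0.14, adjusted p = 0.291). In Th1 the groups overlapped, at 58.1 and 52.7 CPM in KO, against 52.2 and 57.2 CPM in WT (95% interval of the log2 change -0.45 to 0.49, adjusted p = 0.964). In Th2 it rose to 65.8 and 134 CPM in KO, against 21.9 and 23.7 CPM in WT (log2 change 2.13 ± 0.24, adjusted p = 3.23e-06). Without KO Th2 replicate 2, the higher of the pair, the log2 change was 1.53.

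Pdcd1 and Ctla4, the CD28-family members, differed 2.05-fold or less between genotypes. Pdcd1 (ENSMUSG00000026285, chromosome 1, 94038305 to 94052553, minus strand) was 13.2 and 15.1 CPM in KO naive cells, against 9.23 and 9.52 CPM in WT naive cells (log2 change 0.59 ± 0.20, adjusted p = 0.0340). In Th1 it was 93.0 and 89.7 CPM in KO, against 68.2 and 70.0 CPM in WT (log2 change 0.40 ± 0.15, adjusted p = 0.0310). Both differences lay outside the replicate spread, and both calls were lost when any 1 of the 4 libraries was left out, at adjusted p = 0.0761 to 0.132 in naive cells and 0.0710 to 0.123 in Th1. In Th2 the KO libraries, at 28.4 and 48.6 CPM, stood on either side of the WT libraries at 31.0 and 30.7 CPM (log2 change 0.31 ± 0.16, adjusted p = 0.121). Without KO Th2 replicate 2 the Th2 change was -0.13, and without replicate 1 it was 0.65 (adjusted p = 0.000112). Ctla4 (ENSMUSG00000026011, chromosome 1, 60887000 to 60915832, plus strand) overlapped between genotypes in naive cells, at 368 and 403 CPM in KO, against 441 and 381 CPM in WT (95% interval of the log2 change -0.41 to 0.23, adjusted p = 0.695). It also overlapped in Th1, at 679.8 and 604 CPM in KO, against 717 and 670.3 CPM in WT (95% interval -0.43 to 0.20, adjusted p = 0.555). In Th2 it rose, with 2757 and 1848 CPM in KO, against 1154 and 1089 CPM in WT (log2 change 1.04 ± 0.15, adjusted p = 2.17e-05).

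Tox (ENSMUSG00000041272, chromosome 4, 6686353 to 6991557, minus strand) was called lower in KO in each state, and no other of the 9 genes was in the fit of all libraries. With the libraries of a comparison alone, Lag3 was also called lower in KO Th1 (log2 change -0.25, adjusted p = 0.00330) and Cd96 in KO naive cells (log2 change -0.30, adjusted p = 0.0129), and Lag3 was called in KO Th1 without the filter on low counts (adjusted p = 0.0491). Tox was 35.9 and 41.4 CPM in KO naive cells, against 65.4 and 75.0 CPM in WT naive cells (log2 change -0.86 ± 0.15, adjusted p = 0.000566). Th1 cultures held 1.32 and 0.966 CPM of Tox in KO, against 16.05 and 16.6 CPM in WT, 14.2-fold lower (log2 change -3.82 ± 0.24, adjusted p = 3.18e-09). Th2 cultures held 0.438 and 0.324 CPM in KO, from 5 and 3 counts, against 2.92 and 4.65 CPM in WT (log2 change -3.24 ± 0.39, adjusted p = 2.42e-06).

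**Figure D2:**
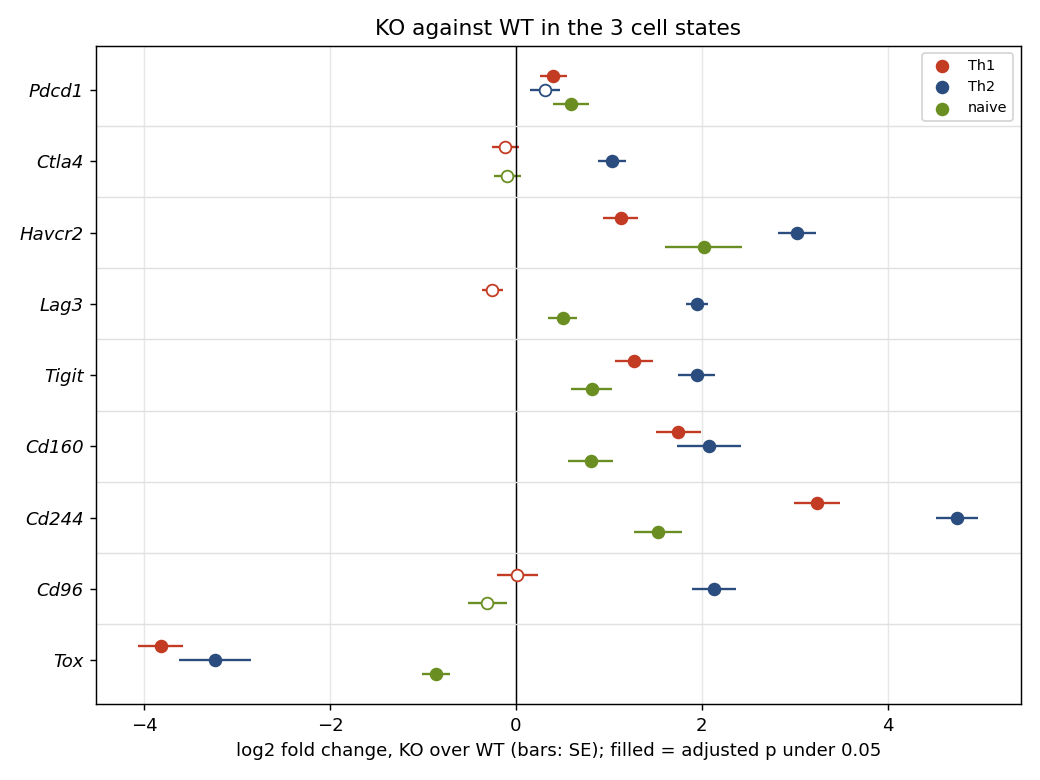
Log2 fold change of KO over WT for each gene (points, bars are SE) in naive cells, Th1 and Th2, filled where the adjusted p was under 0.05. Cd244 reaches 4.75 in Th2 and Tox -3.82 in Th1, and Lag3 lies on opposite sides of 0 in Th2 (1.95) and Th1 (-0.26).

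Differences between these effects were tested as interaction terms. The comparisons of Th1 and of Th2 with the naive state share the naive libraries. The KO effect in Th2 exceeded that in naive cells for Ctla4, Lag3, Tigit, Cd160, Cd244 and Cd96 and lay below it for Tox, so 6 genes were called higher and 1 lower, where 17% and 18.7% of all tested genes were. Between Th1 and naive cells 1 was called higher (Cd244) and 2 lower (Lag3 and Tox), against 10.7% and 16.9%. The effect in Th1 was below that in Th2 for Ctla4, Havcr2, Lag3, Cd244 and Cd96 and above it for none, against 24.3% and 22%. The gap between Th1 and Th2 was -2.20 ± 0.16 on the log2 scale for Lag3 (adjusted p = 4.77e-08) and -2.11 for Cd96, which was -2.54 without KO Th2 replicate 1 and -1.51 without KO Th2 replicate 2. For Tigit the Th1 effect was 0.67 below the Th2 effect (adjusted p = 0.0664), and with a block for the replicate number it passed (adjusted p = 0.00394). For Cd160 the Th1 effect was 0.94 above the naive effect (adjusted p = 0.0503), which passed with the block (adjusted p = 0.0389). For Pdcd1 neither difference with Th2 passed. Without KO Th2 replicate 2, the Th2 effect of Pdcd1 was 0.72 below the naive effect (adjusted p = 0.00200) and 0.53 below the Th1 effect (adjusted p = 0.00526), both past the threshold.

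Markers of other cells moved with genotype in the same libraries. Their counts stand beside 16% of all tested genes called higher and 12.4% lower in KO naive cells. Those shares were 24.8% and 25.8% in KO Th1, and 26.5% and 26.9% in KO Th2. The 2 CD8 markers, Cd8a and Cd8b1, summed to 129.6 and 267 CPM in KO Th2, against 13.05 and 16.2 CPM in WT Th2, and both were called higher in KO Th2. Replicate 2 of KO Th2, with the higher CD8 sum, was also the higher for Pdcd1, Havcr2, Lag3, Cd160, Cd244 and Cd96, and replicate 1 for Ctla4, Tigit and Tox. Mast cell and basophil markers summed to 1919 and 808 CPM in KO Th1, against 158 and 118 CPM in WT Th1, with 8 of 8 called higher. In naive cells they summed to 127 and 53.5 CPM in KO, against 53.0 and 25.4 CPM in WT. In Th2 they summed to 61.4 and 116 CPM in KO, against 43.3 and 53.1 CPM in WT. Among NK cell markers 5 of 6 were called higher in KO Th1 (sums of 342 and 264 CPM in KO, against 191 and 176 CPM in WT), and 0 of 6 in Th2. The NK sums in naive cells were 152 and 114 CPM in KO, against 81.0 and 56.5 CPM in WT. In Th2 they were 13.6 and 19.3 CPM in KO, against 22.5 and 21.9 CPM in WT. Myeloid and dendritic markers summed to 999.9 and 517 CPM in KO naive cells, against 413 and 317 CPM in WT naive cells, with 7 of 8 tested called higher. The 6 regulatory T cell markers, which mark cells rich in CTLA-4 and TIGIT, divided. In naive cells 0 were called higher and 5 lower, with sums of 272.7 to 273 CPM in KO against 485 to 533 CPM in WT. In Th1 2 were called higher and 4 lower, with sums of 3633 to 3795 CPM in KO against 2330 to 2350.2 CPM in WT. In Th2 2 were called higher and 3 lower, with sums of 5891 to 7225 CPM in KO against 3426 to 3476 CPM in WT. Within that list Il2ra, the gene for the IL-2 receptor alpha chain, rose in both KO cultures (log2 change 0.77 ± 0.11 in Th1 and 0.97 ± 0.11 in Th2), and Foxp3, the defining factor, fell to 56.9 to 57.0 CPM in KO naive cells against 99.0 to 108 CPM in WT, to 1.13 to 1.47 CPM in KO Th1 against 24.5 to 24.9 CPM in WT, and to 1.31 to 3.24 CPM in KO Th2 against 11.5 to 15.2 CPM in WT. Erythroid markers summed to 1257 CPM in KO naive replicate 1 and to at most 306 CPM in any other library. In Th1 cultures the myeloid and dendritic sums were 111 to 137 CPM in KO, against 53.7 to 57.3 CPM in WT, with 5 of 8 called higher. In Th2 cultures they were 238 to 286 CPM in KO, against 79.1 to 80.1 CPM in WT, with 3 called higher and 1 lower, while Lyz2 of that list was at 0 to 0.755 CPM in KO Th2. B cell markers summed to 77.6 and 50.1 CPM in KO naive cells, against 19.8 and 14.5 CPM in WT naive cells. In any other group they summed to at most 29.2 CPM. The part of these cells in the checkpoint changes was not tested.

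The promoters of the receptors that rose in KO in all 3 states are shown because Havcr2, Tigit, Cd160 and Cd244 share the direction of the KO call in naive, Th1 and Th2 cells. Over the 20 libraries their levels did not all run together, with Pearson r of -0.39 for Tigit and Cd160 and 0.41 for Havcr2 and Cd244, given as a description. Windows of 300 bases, 250 before and 50 from the annotated start, were taken from RefSeq on GRCm38.p6, where 7 of the 9 genes matched. Cd160 has a pair of windows. Capitals mark the NFAT core GGAAA, the AP-1 motif TGANTCA and the T-box motif GGTGTGA, read on both strands, so TTTCC is the NFAT core on the other strand and TGANTCA reads the same on both. They are found in 61.341%, 7.808% and 3.979% of 32851 promoters of the same length.
Havcr2, chr11:46454681-46454980, plus strand: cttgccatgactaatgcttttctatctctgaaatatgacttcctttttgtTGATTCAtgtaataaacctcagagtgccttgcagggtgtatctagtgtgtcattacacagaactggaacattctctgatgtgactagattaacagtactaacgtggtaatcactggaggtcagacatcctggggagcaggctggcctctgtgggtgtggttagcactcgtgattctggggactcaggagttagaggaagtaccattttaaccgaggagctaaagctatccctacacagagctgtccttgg
Tigit, chr16:43664135-43664434, minus strand: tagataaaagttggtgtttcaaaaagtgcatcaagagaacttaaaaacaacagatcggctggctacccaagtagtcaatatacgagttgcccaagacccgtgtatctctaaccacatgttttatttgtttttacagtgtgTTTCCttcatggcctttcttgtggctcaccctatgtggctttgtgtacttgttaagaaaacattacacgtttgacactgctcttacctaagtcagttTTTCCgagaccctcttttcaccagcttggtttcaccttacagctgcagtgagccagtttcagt
Cd244, chr1:171558943-171559242, plus strand: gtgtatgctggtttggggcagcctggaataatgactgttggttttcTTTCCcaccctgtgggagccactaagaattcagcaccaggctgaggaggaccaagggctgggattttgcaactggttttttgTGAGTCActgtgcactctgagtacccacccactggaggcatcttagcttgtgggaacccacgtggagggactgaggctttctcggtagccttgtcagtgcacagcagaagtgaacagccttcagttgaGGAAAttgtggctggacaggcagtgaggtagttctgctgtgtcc
Cd160, upstream window, chr3:96829302-96829601, minus strand: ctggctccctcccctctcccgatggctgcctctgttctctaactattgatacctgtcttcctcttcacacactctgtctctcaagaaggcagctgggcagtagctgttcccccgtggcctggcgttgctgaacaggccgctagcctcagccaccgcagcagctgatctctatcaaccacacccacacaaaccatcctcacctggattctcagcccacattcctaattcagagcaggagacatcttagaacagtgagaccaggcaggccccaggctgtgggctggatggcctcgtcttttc
Cd160, downstream window, chr3:96814472-96814771, minus strand: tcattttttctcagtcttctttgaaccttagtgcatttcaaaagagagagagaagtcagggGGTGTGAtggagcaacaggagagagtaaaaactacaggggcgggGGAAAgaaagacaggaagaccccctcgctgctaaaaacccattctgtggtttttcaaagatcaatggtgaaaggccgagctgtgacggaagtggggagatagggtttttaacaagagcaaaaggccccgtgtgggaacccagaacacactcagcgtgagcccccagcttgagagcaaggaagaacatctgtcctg

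Havcr2 held an AP-1 match at position -200 from the start and Cd244 another at -122, beside NFAT cores at -204 and 7. Tigit held NFAT cores at -110 and -13. The downstream Cd160 window held a T-box match at -189 and an NFAT core at -145, and the upstream window had none of the 3 motifs. The NFAT core stands in most promoters, so its presence does not set these genes apart, and no factor binding was measured.

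Inhibition of DOT1L with SGC0946 raised Lag3 and Tigit in Th2 cultures and called none of the 9 genes in Th1, with SGC0649 as the control at the same 1 µM and 4 days. The compounds were thus compared in 2 pairs of groups, with p-values adjusted over all tested genes in each. In Th2, 2 genes were called higher and 0 lower, where 5.45% and 2.51% of tested genes were. Lag3 was 449.6 and 367 CPM with SGC0946, against 264 and 216 CPM with SGC0649 (log2 change 0.77 ± 0.12, adjusted p = 0.000671). Tigit was 286 and 224 CPM with SGC0946, against 166 and 99.9 CPM with SGC0649 (log2 change 0.94 ± 0.20, adjusted p = 0.0110). In both, the groups did not overlap. The Tigit call was lost without SGC0649 Th2 replicate 2 (adjusted p = 0.0940) or SGC0946 Th2 replicate 1 (adjusted p = 0.119). Fitting only the 4 libraries of the comparison called 0 of 11889 genes tested, with log2 changes of 0.74 for Lag3 (adjusted p = 0.140) and 0.92 for Tigit (adjusted p = 0.198). Havcr2, at 44.1 and 35.4 CPM with SGC0946 against 28.8 and 22.6 CPM with SGC0649, did not pass (log2 change 0.63 ± 0.21, 95% interval 0.19 to 1.07, adjusted p = 0.0778), but DESeq2 called it (adjusted p = 0.0301). Ctla4 (0.36 ± 0.15, 95% interval 0.05 to 0.68, adjusted p = 0.151) and Tox (-0.55 ± 0.24, 95% interval -1.06 to -0.04, adjusted p = 0.184) did not pass. Pdcd1, Cd160, Cd244 and Cd96 had adjusted p of 0.610 to 0.799 there. The interval for Cd244, -0.27 to 0.70, lay far below its KO change of 4.75 in Th2. The CD8 markers summed to 14.4 to 16.4 CPM with SGC0946, against 14.5 to 16.03 CPM with SGC0649. Sums of NK cell, B cell, erythroid and T cell identity markers also overlapped between the compounds in these Th2 cultures. The sums of the remaining lists were higher with SGC0946 in both libraries. Myeloid and dendritic markers summed to 100.1 to 121 CPM with SGC0946, against 70.0 to 84.3 CPM with SGC0649, with 1 gene called higher. Mast cell and basophil markers summed to 162 to 170.4 CPM with SGC0946, against 101 to 145 CPM with SGC0649, with none called. Regulatory T cell markers summed to 4968 to 5534 CPM with SGC0946, against 3772 to 4518 CPM with SGC0649, with 0 called higher and 1 lower. Their part in the changes of Lag3 and Tigit was not tested.

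In Th1, 0 of 9 genes passed by edgeR and 0 by DESeq2, where edgeR called 0.467% of tested genes, and 3 had an unadjusted p under 0.05. Tigit was 98.9 and 97.7 CPM with SGC0946, against 67.5 and 63.4 CPM with SGC0649 (log2 change 0.59 ± 0.21, adjusted p = 0.296). With a block for the replicate number Tigit passed (log2 change 0.59, adjusted p = 0.0347). Cd160 was 4.76 and 6.11 CPM with SGC0946, against 9.12 and 10.5 CPM with SGC0649 (log2 change -0.86 ± 0.28, 95% interval -1.46 to -0.26, adjusted p = 0.243), a direction opposite to that of the KO. Lag3 was 782 and 684 CPM with SGC0946, against 616 and 591 CPM with SGC0649 (log2 change 0.28 ± 0.11, adjusted p = 0.381). The 4 libraries of the comparison fitted alone called 4 genes, Havcr2, Lag3, Tigit and Cd160, where that fit called 4.85% of its 11568 tested genes. Cd244 (95% interval -0.72 to 0.56), Cd96 (-0.51 to 0.45), Pdcd1 (-0.25 to 0.38), Ctla4 (-0.18 to 0.45) and Tox (-0.60 to 0.13) did not pass. The difference between the Th1 and Th2 effects of SGC0946 passed for 0 of 9 genes by edgeR and 0 by DESeq2 (0.520% of tested genes called), with 1, Lag3, at an unadjusted p under 0.05.

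**Figure D3:**
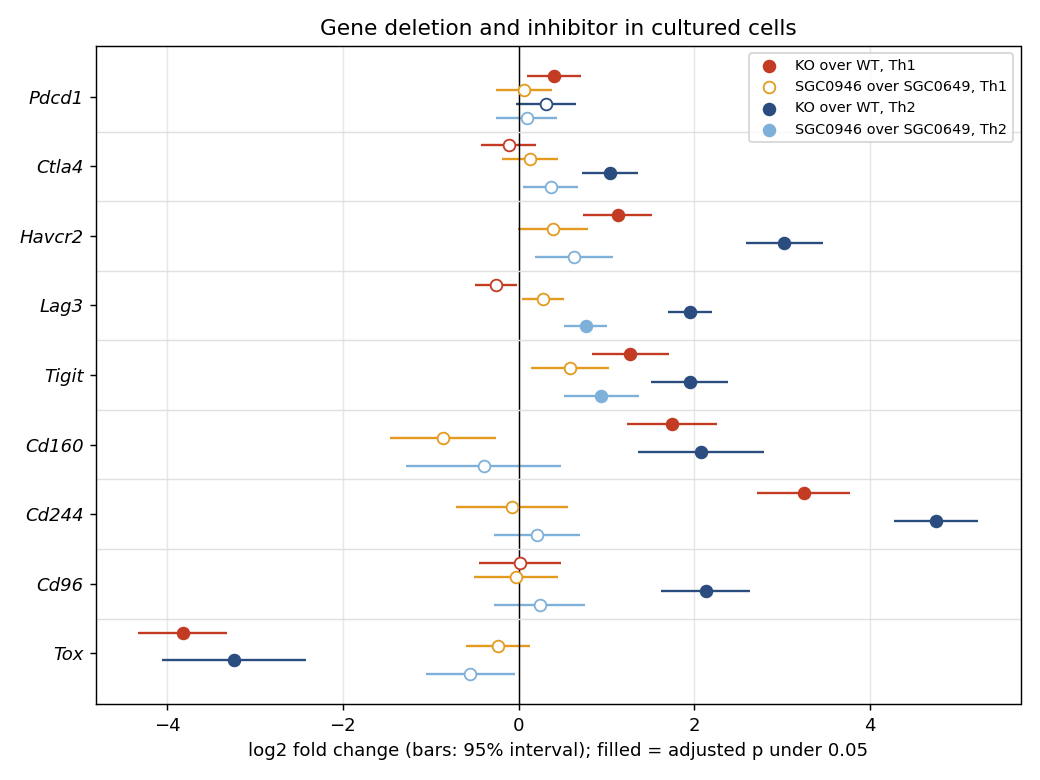
Log2 fold change of KO over WT, and of SGC0946 over SGC0649 in WT cells, for each gene (points) in Th1 and Th2 cultures. Bars are 95% intervals, and points are filled where the adjusted p was under 0.05. For SGC0946 over SGC0649, Lag3 (0.77) and Tigit (0.94) in Th2 are filled, and the Th1 points are open.

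The KO changes exceeded those with the inhibitor for most of the receptors in Th2. The 2 are unlike in exposure: SGC0946 was given to WT cells in the 4-day culture, while 6 of the 9 genes were already higher in KO naive cells. The part of this in the differences was not tested. The difference between the KO effect and the inhibitor effect, each against its own control, was called higher for 7 genes and lower for 1 in Th2, against a background of 15% and 17%. It was largest for Cd244, at 4.54 ± 0.32 on the log2 scale (adjusted p = 1.04e-07). Tox lay lower by -2.69 ± 0.48 (adjusted p = 0.000433). Pdcd1 was the 1 gene not called (adjusted p = 0.513), and it was called without KO Th2 replicate 1 (difference 0.57, adjusted p = 0.00601). The call for Ctla4 was lost without KO Th2 replicate 1, WT Th2 replicate 2 or SGC0946 Th2 replicate 2, and that for Tigit without WT Th2 replicate 2, SGC0649 Th2 replicate 1 or SGC0946 Th2 replicate 2. Both were also lost with the libraries of the comparison alone (Ctla4 0.70, adjusted p = 0.0959, and Tigit 1.02, adjusted p = 0.0612). In Th1, 3 genes were called higher and 2 lower, against 12.8% and 17.9%: Cd244 by 3.32 ± 0.40, Cd160 by 2.61 ± 0.37 and Havcr2 by 0.74 ± 0.26 were higher, and Lag3 by -0.54 ± 0.16 and Tox by -3.59 ± 0.30 were lower. The Havcr2 call was lost when any 1 of the 8 libraries was left out (adjusted p = 0.0654 to 0.125), and that for Lag3 without 4 of them, so that 3 genes were called without KO Th1 replicate 1, WT Th1 replicate 1, SGC0649 Th1 replicate 2 or SGC0946 Th1 replicate 1. Without the filter on low counts the Havcr2 call was lost as well (difference 0.72, adjusted p = 0.0908). Tigit (difference 0.69, adjusted p = 0.0876) passed with the replicate block (adjusted p = 0.00806). The control compound itself called 0 of 9 genes against no compound in either culture, by edgeR or DESeq2, with 0 at an unadjusted p under 0.05, where 0.0153% of tested genes were called in Th1 and 0.673% in Th2.

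Culture raised the receptors PD-1, CTLA-4, TIM-3, LAG-3 and TIGIT at the RNA level and lowered Cd96 and Tox. Against naive cells, KO Th1 cultures had 6 genes called higher and 2 lower (36.2% and 34.8% of tested genes) and KO Th2 cultures 6 higher and 3 lower (34.2% and 34.9%). WT Th1 cultures had 5 higher and 2 lower (34.3% and 33% of tested genes), and WT Th2 cultures 6 higher and 3 lower (36.9% and 35%). Lag3 rose 32.2-fold in KO Th1 and 58.3-fold in KO Th2, and 54.6-fold in WT Th1 and 21.4-fold in WT Th2. Havcr2 rose 29.3-fold in KO Th1 and 32.2-fold in KO Th2, and 54.4-fold in WT Th1 and 16.01-fold in WT Th2, where WT naive cells held at most 1.47 CPM. Pdcd1 rose 7.36-fold in WT Th1 and 3.29-fold in WT Th2. Cd244 rose 2.52-fold in KO Th1 and 19.1-fold in KO Th2. In WT it was called higher in Th2 (log2 change 1.04 ± 0.27, adjusted p = 0.00305) and not in Th1 (-0.38 ± 0.31, adjusted p = 0.285). Cd160 was called lower in KO Th2 (log2 change -1.46 ± 0.25) and WT Th2 (-2.74 ± 0.32). In KO Th1 it was 0.52 ± 0.23 above KO naive cells (adjusted p = 0.0504), which passed with the replicate block (adjusted p = 0.0401). In KO Th2, Cd96 was 0.59 below KO naive cells (adjusted p = 0.0225), a call lost without KO Th2 replicate 1 (log2 change -0.16) or KO naive replicate 2 (-0.51). It was also lost with the libraries of the comparison alone (-0.58, adjusted p = 0.160) and without the filter on low counts (-0.60, adjusted p = 0.0514). Leaving out KO Th2 replicate 2 moved the KO Th2 change of Cd160 to -2.11 and of Cd96 to -1.20. In WT, Cd96 fell in Th1 (log2 change -1.76 ± 0.22) and Th2 (-3.03 ± 0.24). Tox fell 33.4-fold in KO Th1 and 97.1-fold in KO Th2, and 4.29-fold in WT Th1 and 18.7-fold in WT Th2.

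Between the cultures, 3 genes were called higher in Th1 and 5 lower in KO cells, where 28.1% and 31.8% of tested genes were. In WT cells without compound, Pdcd1, Havcr2, Lag3, Cd160, Cd96 and Tox were called higher in Th1 and Ctla4, Tigit and Cd244 lower, against 26% and 27.3% of tested genes. The same 6 higher and 3 lower genes were called with SGC0946 (25% and 25.4% of tested genes) and with SGC0649 (24.3% and 24.1%). The 5 genes higher in KO Th2 included Lag3, at 506 and 538 CPM in KO Th1 and 902 and 985 CPM in KO Th2 (log2 change -0.85 ± 0.11, adjusted p = 7.31e-06), where WT Th1 exceeded WT Th2 (1.35 ± 0.12). They also included Cd96 (-0.85 ± 0.22, adjusted p = 0.00373, against 1.27 ± 0.24 in WT), a call that was lost without KO Th2 replicate 2 (log2 change -0.24). The Cd96 call was also lost with the libraries of the comparison alone (log2 change -0.81, adjusted p = 0.138). For Havcr2 the groups overlapped in KO cells (-0.13 ± 0.18, adjusted p = 0.541), with -0.43 (adjusted p = 0.0278) without KO Th2 replicate 1 and 0.24 without replicate 2, while WT Th1 was 1.76 ± 0.20 above WT Th2. The KO call for Tox (1.54 ± 0.48, adjusted p = 0.0103) was lost without KO Th1 replicate 1 (adjusted p = 0.0816) or KO Th2 replicate 2 (adjusted p = 0.0604). Cd160 stayed higher in KO Th1 (1.98 ± 0.25, and 2.63 without KO Th2 replicate 2). With SGC0946 the call for Cd96 (0.68 ± 0.23, adjusted p = 0.0234) was lost without SGC0946 Th1 replicate 1, SGC0946 Th1 replicate 2 or SGC0946 Th2 replicate 2. It was also lost without the filter on low counts (0.69, adjusted p = 0.0575).

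**Figure D4:**
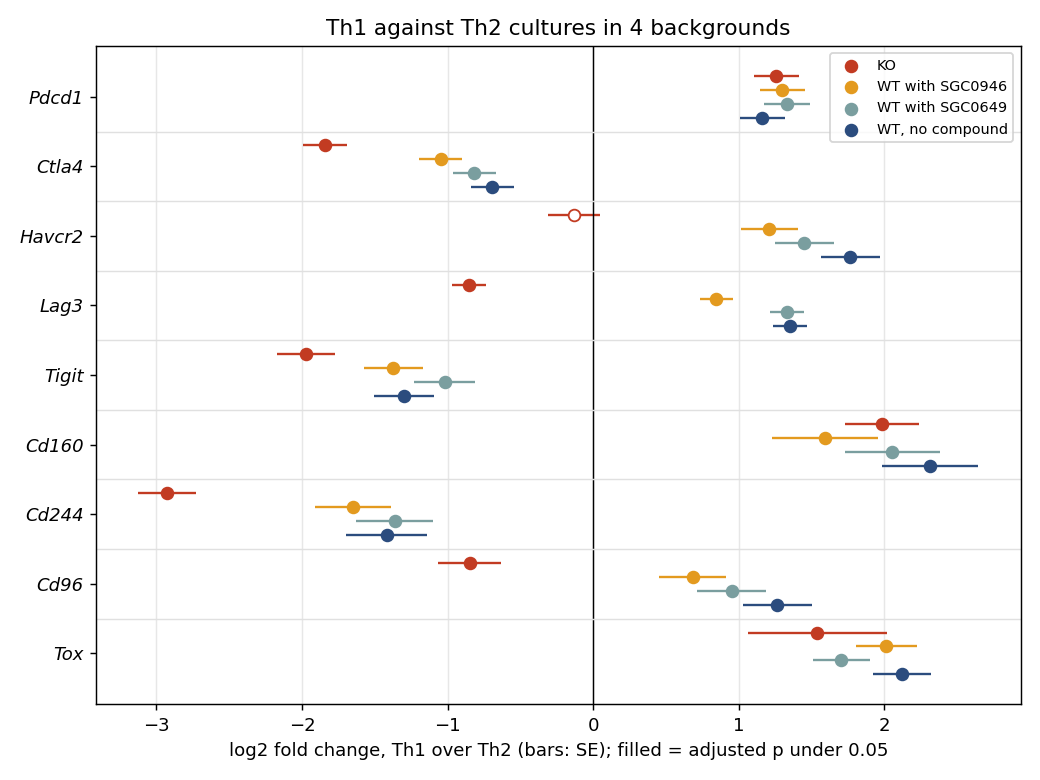
Log2 fold change of Th1 over Th2 cultures for each gene (points, bars are SE) in KO cells, WT cells with SGC0946, WT cells with SGC0649 and WT cells without compound. For Lag3 and Cd96 the KO points (-0.85 and -0.85) lie below 0 and the points of the other 3 backgrounds above it.

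By Pearson r of log2 CPM over the 20 libraries, which share groups, the genes closest in pattern were Ffar2 for Lag3 (r = 0.992), Lgals1 for Havcr2 (0.988), Bzrap1 for Tigit (0.986), Fut7 for Pdcd1 (0.982), Fryl for Tox (0.982), Ecm1 for Ctla4 (0.977), Ddx58 for Cd96 (0.973), Acot11 for Cd244 (0.969) and Mesdc1 for Cd160 (0.939). Among the members, Havcr2 and Lag3 (0.951) and Ctla4 and Tigit (0.907) ran closest, and Tigit and Tox ran in opposite directions (-0.919). These are descriptions over libraries of 10 groups and carry no test.

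Lists of related genes gave mixed counts. They are to be read against 16% of all tested genes called higher and 12.4% lower in KO naive cells, 24.8% and 25.8% in KO Th1, 26.5% and 26.9% in KO Th2, and 5.45% and 2.51% with SGC0946 in Th2. Of 14 tested ligand genes, 7 were called higher and 2 lower in KO naive cells, 5 and 4 in KO Th1, and 4 and 4 in KO Th2. Cd274, the gene for PD-L1, fell in KO naive cells (log2 change -0.29 ± 0.08) and in KO Th1 (-1.45 ± 0.09, 68.4 CPM in KO and 186 CPM in WT). Pdcd1lg2, for PD-L2, fell in KO Th2 (-1.44 ± 0.16), as did Cd80 (-1.33 ± 0.27), and Pvrl3, a nectin gene, rose in KO Th1 (2.92 ± 0.47) and KO Th2 (3.03 ± 0.36). Under SGC0946 in Th2, Cd274 (-0.67 ± 0.09) and Pdcd1lg2 (-0.82 ± 0.15) were called lower and Lgals3 (0.86 ± 0.23) higher. The activating counterparts fell in KO Th1, where 0 of 9 were called higher and 9 lower (median log2 change -1.01), among them Cd27 (-2.29 ± 0.20) and Slamf6 (-1.59 ± 0.15). In KO Th2 they divided, with 4 called higher and 5 lower: Slamf6 (2.71 ± 0.16) and Icos (0.89 ± 0.17) rose and Cd28 (-0.84 ± 0.14) and Cd226 (-0.89 ± 0.25) fell. Cd226 fell also with SGC0946 in Th2 (-1.38 ± 0.25), where Slamf6 rose (1.45 ± 0.16).

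Other inhibitory genes did not all follow the 9 genes. Their list held mainly receptors, but also genes for ectoenzymes and a ligand. Of 12 tested, 6 were called higher and 2 lower in KO naive cells, 4 and 7 in KO Th1, and 5 and 5 in KO Th2. Klrg1, a lectin-like receptor of effector T and NK cells, rose in all 3 (1.996 ± 0.34, 3.71 ± 0.36 and 3.02 ± 0.39). Entpd1, for the ectonucleotidase CD39, rose in KO Th1 (1.10 ± 0.20) and KO Th2 (3.09 ± 0.22), and with SGC0946 in Th2 (0.94 ± 0.22). Btla, which encodes another receptor for HVEM, fell in naive (-0.62 ± 0.12), Th1 (-2.96 ± 0.13) and Th2 KO cells (-6.93 ± 0.19), and with SGC0946 in Th2 (-1.10 ± 0.12). Cd200, which encodes a ligand and not a receptor, fell in KO Th2 (-6.62 ± 0.20) and with SGC0946 in Th2 (-1.52 ± 0.14). Of 14 tested adaptors and phosphatases, 3 were called higher and 0 lower in KO naive cells, 2 and 9 in KO Th1, and 5 and 5 in KO Th2. Ptpn6, which encodes the phosphatase SHP-1, rose in KO naive cells (0.46 ± 0.08) and fell in KO Th2 (-1.87 ± 0.08). Of 21 tested factors linked to checkpoint genes, 11 were called higher and 4 lower in KO naive cells, 4 and 14 in KO Th1, and 7 and 10 in KO Th2. Tox2, a relative of Tox, was higher in KO naive cells (1.64 ± 0.17). Bach2, a repressor of effector genes, fell in all 3 (-1.27 ± 0.17, -3.98 ± 0.20 and -3.53 ± 0.21). Myb rose in KO Th2 (3.58 ± 0.12) and with SGC0946 in Th2 (1.36 ± 0.11), and Prdm1, which encodes BLIMP-1, rose with SGC0946 in Th1 (0.59 ± 0.11) and Th2 (1.19 ± 0.12). With SGC0946 in Th2, 1 ligand gene was called higher and 2 lower, and 2 activating counterparts higher and 1 lower. Of the other inhibitory genes, 3 were called higher and 3 lower there. The adaptors had 2 higher and 1 lower, and the factors 5 higher and 4 lower. With SGC0946 in Th1, Prdm1 was the 1 gene of these 5 lists that was called.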

How the data were processed

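Total RNA of 20 libraries, 2 for each of 10 groups, had been counted per gene by the authors with featureCounts 1.5.3 (strand setting 2, Ensembl release 84, GRCm38), per the file headers. The deposited values are whole-number counts. Gene lengths in bases, per the file headers, are a unit of another kind and served for RPKM alone. The tools limma and edgeR appear in the submitters' processing notes, and no aligner is given in the sources used here. Such counts cannot separate near-identical genes.

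From the deposited counts, 22048 protein-coding genes were filtered with filterByExpr (minimum count 10, minimum total count 15), which left 13072. A single fit in edgeR 4.0.16 (R 4.3.3, limma 3.58.1 loaded) covered the 20 libraries, each group having its own mean, with TMM factors of 0.878 to 1.08, a robust quasi-likelihood fit and a common biological coefficient of variation of 0.0963. Each comparison had a quasi-likelihood F test, with Benjamini-Hochberg adjustment over the genes tested and a threshold of 0.05. The SE is the size of the log2 change over the root of F, and intervals are at 95%. The pipeline was tested on simulated data. The replicates of every group differed by more than counting error (chi-square per degree of freedom 2.25 to 19.4), so none was a library deposited again. The 9 genes and the related lists were chosen with earlier results of these data known. All 9 are named. Of each related list, up to 2 called genes with the highest and 2 with the lowest log2 change in a KO or inhibitor comparison could be named. Cd4, Cd8a, Cd8b1, Foxp3 and Lyz2 are named as markers, and Il2ra after its values were seen. The neighbour in pattern is the gene with the highest Pearson r outside the list. Column names of the count table number both SGC0946 libraries of a culture 1, where the titles give 1 and 2.

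Deviations from group means of same-numbered libraries correlated at 0.192 to 0.700 over 15 of 15 pairs of WT cultures and at 0.133 to 0.283 over 3 of 3 pairs of KO and WT of the same condition, so the number was taken to pair these libraries, from the data and not from the labels. Other pairs were not all lower. They gave -0.110 to 0.0794 for WT naive cells with WT cultures, and -0.0206 to 0.245 for KO with KO. Over all 21 pairs of KO with WT the median was 0.0624, and WT naive with KO Th1, of unlike condition, gave 0.264. The pairing of KO with WT libraries is therefore uncertain. The block for the number still covered all 20 libraries. The reported values do not use the number. Alternatives were DESeq2 1.42.0, RLE scaling, no filter on low counts, the table with genes outside the protein-coding class, the libraries of a comparison alone, a block for the replicate number, and leaving out single libraries.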

Additional observations from a re-analysis of the deposited data

Results flagged for a closer look

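Effects on the 9 genes that differed between states, or between deletion and inhibitor, were picked out where the interaction term passed an adjusted p of 0.05 in edgeR's quasi-likelihood test. There were 28 such differences, on the log2 scale. The KO effect in Th1 minus that in naive cells was -0.76 for Lag3, 1.71 for Cd244 and -2.96 for Tox (adjusted p from 2.83e-06 to 0.00829). The KO effect in Th2 minus that in naive cells was 1.13 for Ctla4, 1.45 for Lag3, 1.13 for Tigit, 1.27 for Cd160, 3.22 for Cd244, 2.44 for Cd96 and -2.38 for Tox (adjusted p from 6.44e-06 to 0.0272). The KO effect in Th1 minus that in Th2 was -1.15 for Ctla4, -1.90 for Havcr2, -2.20 for Lag3, -1.51 for Cd244 and -2.11 for Cd96 (adjusted p from 4.77e-08 to 0.0024). In Th1, the KO effect minus the inhibitor effect was 0.74 for Havcr2, -0.54 for Lag3, 2.61 for Cd160, 3.32 for Cd244 and -3.59 for Tox (adjusted p from 4.62e-07 to 0.044). In Th2, the KO effect minus the inhibitor effect was 0.67 for Ctla4, 2.40 for Havcr2, 1.18 for Lag3, 1.00 for Tigit, 2.47 for Cd160, 4.54 for Cd244, 1.89 for Cd96 and -2.69 for Tox (adjusted p from 1.04e-07 to 0.0216). The Cd160 difference between Th2 and naive cells was lost without KO Th2 replicate 2 (difference 0.63, adjusted p = 0.199), KO naive replicate 2 (adjusted p = 0.0569), WT Th2 replicate 1 (adjusted p = 0.127) or WT naive replicate 1 (adjusted p = 0.0892). With the libraries of that comparison alone, the Cd160 call was lost as well (difference 1.29, adjusted p = 0.0821). Without KO Th2 replicate 2 the Cd96 differences were 1.83 between Th2 and naive cells, -1.51 between Th1 and Th2, and 1.29 between deletion and inhibitor in Th2, and the Cd160 difference between deletion and inhibitor in Th2 was 1.83. With 2 libraries in each group, single libraries that stand far from the rest of their group could not be picked out by a rule.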

How the results depend on the processing

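The 9 genes in 21 comparisons gave 2106 repeat values under the alternatives, of which 1968 kept direction and side of the threshold. Another 56 lost the call in the same direction, 39 gained one in the same direction, and 43 changed sign. Every one of the 43 was uncalled in the reported fit and under the alternative. The cause was not tested in any of these.

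With the libraries of a comparison fitted alone, the count of called genes was 4 for SGC0946 against SGC0649 in Th1 (0 reported), 0 for the same pair in Th2 (2 reported), and 6 for the KO effect in Th1 minus that in naive cells (3 reported). Those fits called 4.85%, 0% and 36.8% of the genes they tested. With the replicate block the count for SGC0946 against SGC0649 in Th1 was 1, Tigit. The block changed no other calls than those of Tigit and Cd160 given above with their values. When single libraries were left out, the count was 3 to 6 for KO against WT naive cells (7 reported), 1 to 2 for SGC0946 against SGC0649 in Th2, and 3 to 4 for the KO effect minus the inhibitor effect in Th1 (5 reported).

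Sign changes outside the leave-one-out fits were small on the log2 scale. For SGC0649 against no compound they were -0.00208 for Cd96 in Th1 without the filter on low counts, and, in Th2, 0.0282 for Pdcd1 and 0.0144 for Lag3 with the libraries alone and 0.0367 and 0.0223 for the same genes with the genes outside the protein-coding class. The Ctla4 KO effect in Th1 minus that in naive cells was 0.00544 by DESeq2 and 0.00542 with RLE scaling. The Pdcd1 inhibitor effect in Th1 minus that in Th2 was 0.00972 with the genes outside the protein-coding class.

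Where leaving out single libraries changed the sign, the log2 ranges over all the alternatives were as follows. KO against WT ran from -0.186 to 0.0152 for Ctla4 in naive cells, from -0.0650 to 0.0757 for Cd96 in Th1 and from -0.126 to 0.646 for Pdcd1 in Th2. KO Th1 against KO Th2 ran from -0.425 to 0.240 for Havcr2. SGC0946 against SGC0649 in Th1 ran from -0.337 to 0.165 for Cd244 and from -0.115 to 0.0770 for Cd96. SGC0649 against no compound in Th1 ran from -0.0895 to 0.0113 for Ctla4, -0.166 to 0.134 for Cd160, -0.102 to 0.0894 for Cd96 and -0.171 to 0.0353 for Tox. In Th2 it ran from -0.0893 to 0.0598 for Pdcd1, -0.166 to 0.105 for Lag3, -0.574 to 0.135 for Tigit and -0.00128 to 0.517 for Cd160. Between the KO effects, Th1 minus naive ran from -0.138 to 0.0857 for Ctla4, Th2 minus naive from -0.724 to 0.0693 for Pdcd1, and Th1 minus Th2 from -0.251 to 0.530 for Pdcd1 and from -0.808 to 0.309 for Cd160. The inhibitor effect in Th1 minus that in Th2 ran from -0.0979 to 0.0513 for Pdcd1. The KO effect minus the inhibitor effect ran from -0.0713 to 0.120 for Cd96 in Th1 and from -0.218 to 0.567 for Pdcd1 in Th2.

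Each group had 2 libraries, so leaving 1 out leaves a lone library that is assumed to vary like the other groups. Neither TMM nor RLE scaling moved the median of all tested genes by more than 0.1 on the log2 scale. Tox in KO cultures and Cd160 in Th2 rest on few counts, which limits the precision of their fold changes.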
